A study of Mus musculus with 12 samples.

Results

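The claudin and cadherin genes of C57MG cells, a mouse mammary epithelial line, were examined by microarray in 12 samples. The set held every gene that the array files name as a numbered claudin (Cldn) or a numbered cadherin (Cdh), apart from Cdh1 and Cdh2. It comprised 42 genes, 21 claudins and 21 cadherins, among 27962 gene names on the array, and each gene was read from its brightest probe, the one with the highest mean log2 signal over all arrays. Monolayers in plain medium received for 24 h the carrier protein bovine serum albumin (BSA), recombinant human R-spondin2 (Rspo2, 100 ng/ml), recombinant mouse Wnt3a (100 ng/ml), or Rspo2 plus Wnt3a at the same amounts. Each group had 3 monolayers, labelled as biological replicates, and each monolayer gave 1 single-colour array. All samples come from the same established line and differ by no genetic change.

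Claudins are membrane proteins of tight junctions. Their combination in a cell sheet decides how tightly the space between cells is sealed and which ions can pass. Cadherins hold neighbouring cells together in the presence of calcium, and the tails of classical cadherins bind β-catenin and p120-catenin. β-catenin is also the transcriptional effector of Wnt signalling, which R-spondins potentiate, so that adhesion and Wnt signalling draw on the same protein. In mammary epithelium the luminal layer is known for E-cadherin and for claudins such as Cldn3, Cldn4 and Cldn7, and the myoepithelial layer for P-cadherin.

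Most members did not reach the detection rule. A probe counted as detected where 1 or more of the groups had it flagged well above background in each of its 3 arrays. By this rule 10 of the 42 members (23.8%) were detected, 5 of 21 claudins and 5 of 21 cadherins, against 55.3% of all probes. Cldn9, Cldn12, Cdh5, Cdh11, Cdh13, Cdh20 and Cdh26 were above background on all 12 arrays. Cldn3, Cldn14 and Cldn15 passed only because all 3 arrays with Rspo2 plus Wnt3a were flagged, and were above background on 8, 8 and 6 of 12 arrays. With the looser flag for a signal that is positive and significant, 25 members (59.5%) were detected, against 68.1% of all probes.

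**Figure D1:**
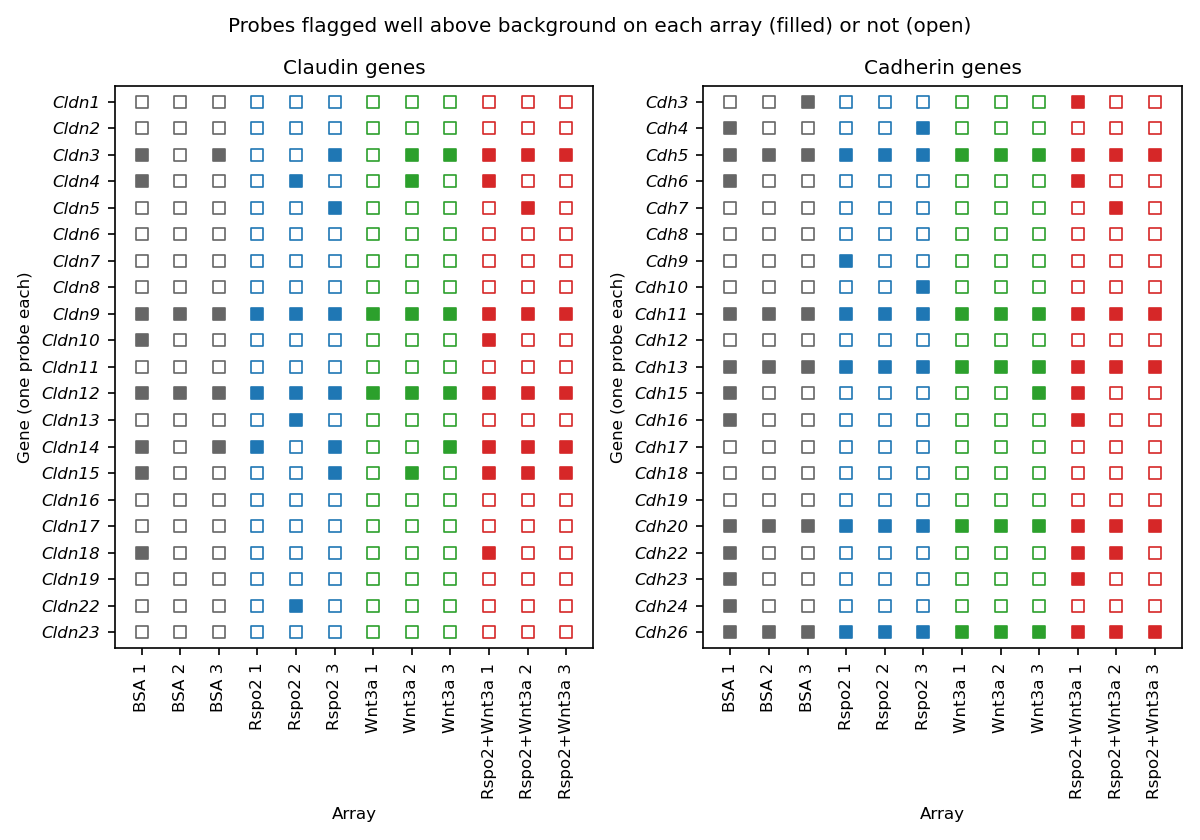
Detection of each claudin and cadherin gene (rows) on each of the 12 arrays (columns), with 1 probe per gene; a filled square is a probe flagged well above background and an open square is one that is not, and colour marks the treatment. 7 rows are filled throughout, 15 are open throughout, and the first BSA array and the first array with both proteins hold most of the scattered filled squares.

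Of the 16 claudins that were not detected, 10 were above background on no array with their brightest probe. These were Cldn1 of the skin barrier, the cation pore Cldn2, the epithelial claudin Cldn7, Cldn8 and Cldn16 of the renal tubule, Cldn19, which acts with Cldn16 in renal magnesium reabsorption, Cldn11 of myelin and Sertoli cells, and Cldn6, Cldn17 and Cldn23. Cldn4, which seals epithelial sheets, was above background on 4 arrays, 1 in each group, and Cldn5 of endothelium, Cldn10 and Cldn18 of stomach and lung on 2 arrays each. Cldn13 and Cldn22 were each above background on 1 array. A dimmer probe of Cldn19 was above background on 2 arrays. A probe in this range gives only an upper bound on its transcript, so no change is given for these genes.

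Among the cadherins, Cdh3 (P-cadherin, a marker of mammary myoepithelium) was above background on 2 of 12 arrays, with 37.7 units as its highest signal. Cdh15 of muscle and Cdh22 were above background on 3 arrays each. Cdh4 (R-cadherin), Cdh6 (K-cadherin), Cdh16 of kidney and Cdh23 of the tip links of hair cells were above background on 2 arrays each, and Cdh7, Cdh9, Cdh10 and Cdh24 on 1 each. Cdh8, Cdh12, Cdh17 of intestine, Cdh18 and Cdh19 were above background on none. These counts are for the brightest probe. A dimmer probe of Cdh8 was above background on 1 array, and a dimmer probe of Cdh10 on 2.

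The scattered flags were unevenly spread over the arrays. The first BSA array and the first array with Rspo2 plus Wnt3a had 64.2% and 61.7% of all probes above background, against 51.3% to 58.8% on the other 10 arrays. They carried 10 and 9 flags of members that were not detected, against 0 to 3 on each of the other arrays. Without both arrays the same 10 members were detected, but the rule then asked for flags on fewer arrays, so no member could be lost.

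Neighbouring genes could differ in detection. In the RefSeq annotation of GRCm38.p6, used only for the order of genes, Cldn9 lies next to Cldn6 on chromosome 17 and was above background on 12 arrays against 0 for Cldn6. Cdh11 and Cdh5 are neighbours on chromosome 8 and were both above background on all 12 arrays. The brightest probe of Cdh8, on the other side of Cdh11, was above background on none. Cldn3 and Cldn4 are neighbours on chromosome 5, with 8 and 4 arrays.

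Markers of cell types were set beside these patterns. Of 7 luminal mammary markers only Krt8 and Esr1 were detected, Cdh1 (E-cadherin) and Elf5 were above background on no array, and Epcam was above background on 2. Of 7 basal or myoepithelial markers 5 were detected (Krt5, Krt14, Krt17, Trp63 and Acta2), and of 9 fibroblast or mesenchymal markers 8, including Cdh2 (N-cadherin), with Thy1 above background on no array. The luminal markers of mammary epithelium were thus mostly below background in cells labelled as mammary epithelial. Of markers of other tissues, 3 of 6 for leukocytes, 3 of 5 for neural or glial cells, 1 of 4 for skeletal muscle (Acta1) and 0 of 6 for endothelium were detected.

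The treatments were compared with limma (two-sided tests, Benjamini-Hochberg adjustment over 22751 detected probes). Values are log2 of the signal over the 75th percentile of its array, and a change was called at an adjusted p under 0.05 and at least 2-fold. No member was called in any of the 5 comparisons. The share of all tested probes called was 0.721% for Rspo2 against BSA, 2.52% for Wnt3a against BSA, 5.08% for Rspo2 plus Wnt3a against BSA, 0.747% for Rspo2 plus Wnt3a against Wnt3a, and 1.93% for the interaction (the combined change minus the sum of the single changes). The methods' t-test, at an unadjusted p under 0.05 and at least 2-fold, also called 0 members in the 4 comparisons in which it was run.

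Without the fold requirement 1 of 10 detected members passed in each comparison with BSA, and it was Cdh5 each time. The shares of all tested probes at this threshold were 16.8% with Rspo2, 31.5% with Wnt3a and 39.2% with both, so the members' share did not exceed the background. None passed for Rspo2 plus Wnt3a against Wnt3a or for the interaction, where the shares were 4.27% and 8.90%. At an unadjusted p under 0.05, 2 of 10 members passed in each comparison. The shares of all tested probes were 35.0% with Rspo2, 43.0% with Wnt3a, 47.9% with both, 18.4% for the combination against Wnt3a and 29.3% for the interaction, so these counts are near or below the background. The members were Cdh5 and Cdh26 against BSA, Cldn9 and Cldn14 for the combination against Wnt3a, and Cldn9 and Cdh5 for the interaction. Cldn14 entered the test only through the combination, the group in which it was then higher, so its pass supports nothing.

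**Figure D2:**
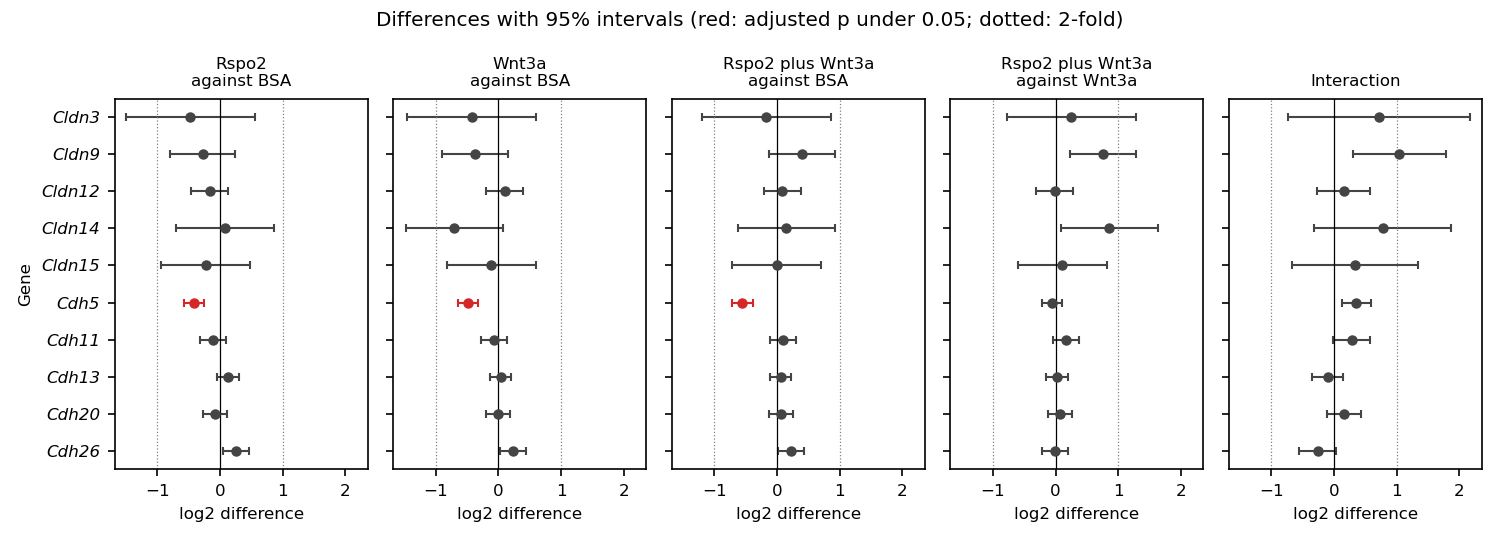
Log2 differences of the 10 detected members (rows) in the 5 comparisons (panels), with 95% intervals from limma; the solid line marks no difference, dotted lines mark 2-fold, and red marks an adjusted p under 0.05. Only Cdh5 is red, in the 3 comparisons with BSA, and the widest intervals belong to Cldn3, Cldn14 and Cldn15.

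Cdh5 encodes VE-cadherin, known as the adherens junction cadherin of endothelium. Its signal was 2281, 2948 and 2601 units on the BSA arrays and 1886, 1641 and 1443 units with Rspo2. It was 1600, 1260 and 1480 units with Wnt3a and 1504, 1654 and 1813 units with both. All 9 treated arrays lay below all 3 BSA arrays, before and after scaling. The share of all tested probes whose groups stand apart was not counted, here or for the genes below. Such a gap alone therefore sets no gene apart.

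On the scaled log2 axis Cdh5 was 1.30 ± 0.06 (SD, n = 3) with BSA, 0.88 ± 0.02 with Rspo2, 0.80 ± 0.09 with Wnt3a and 0.75 ± 0.06 with both. It fell by 25.0% with Rspo2 (log2 change -0.41, SE 0.07, limma adjusted p = 0.0116), by 28.9% with Wnt3a (-0.49, adjusted p = 0.00131) and by 31.7% with both (-0.55, adjusted p = 0.000259). The combination differed from Wnt3a alone by -0.06 (95% interval -0.22 to 0.10, adjusted p = 0.726). The interaction was 0.36 (SE 0.10, adjusted p = 0.0549), so that the sum of the single changes exceeded the change with both, without passing the threshold. It passed under 5 of 26 alternatives. Among these were leaving out Wnt3a array 3 (0.39, adjusted p = 0.0429) or the first array with both (0.39, adjusted p = 0.0493), and quantile normalization (0.43, adjusted p = 0.0278). After normexp background correction it was 0.65 (adjusted p = 0.552), and on a dimmer probe of Cdh5 it was 0.15 (adjusted p = 0.701). In bulk RNA a smaller number of cells that express a gene and less RNA per cell cannot be told apart.

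Endothelial markers were not seen beside Cdh5. None of the 6 (Pecam1, Kdr, Tek, Tie1, Emcn and Esam) was detected, Kdr and Emcn were above background on no array, and Esam was above background on 6. Their summed signal, in multiples of the 75th percentile of the array, spanned 0.0673 to 0.184 for BSA, 0.0717 to 0.0992 for Rspo2, 0.0610 to 0.0903 for Wnt3a and 0.0615 to 0.138 for both, a sum of values at or near background that bounds the level of these genes without showing a difference. Some other marker sums lay apart from BSA in 1 or more treated groups. The sum of the basal or myoepithelial markers spanned 133 to 141 for BSA, 171 to 193 for Rspo2, 185 to 206 for Wnt3a and 220 to 258 for both, and it was carried by the Acta2 probe (log2 changes 0.43, 0.48 and 0.78). The other markers did not move together, since with both proteins Krt14 rose by 1.24 (adjusted p = 8.28e-06) while Krt17 and Trp63 fell by 0.35 and 0.40 (adjusted p = 0.00836 and 0.0143), and Krt5 fell with Rspo2 and Wnt3a by 0.84 and 0.57 (adjusted p = 0.0212 and 0.0405). The sum of the fibroblast or mesenchymal markers spanned 282 to 295 for BSA, 261 to 275 for Rspo2, 277 to 287 for Wnt3a and 272 to 284 for both. In this sum only Rspo2 did not overlap BSA. Of the 8 detected genes of this list only Pdgfra was called with both (-1.37, limma adjusted p = 8.77e-06). At an adjusted p under 0.05, 3 of the 8 were lower with both and 0 higher, where 39.2% of all tested probes passed. The sum of the skeletal muscle markers spanned 2.02 to 2.21 for BSA, 1.85 to 2.89 for Rspo2, 2.55 to 3.78 for Wnt3a and 4.57 to 5.71 for both, with Acta1 called higher with both (1.25). The luminal keratin Krt8 was called lower with both (-1.15, limma adjusted p = 0.000366). Esr1, the other detected luminal marker, differed from BSA by 0.08 with both (adjusted p = 0.807). The luminal sum spanned 0.361 to 0.480 for BSA and lay apart from it only with Wnt3a (0.264 to 0.351). The leukocyte sum spanned 0.407 to 0.429 for BSA and lay apart from it only with Rspo2 (0.444 to 0.478). Both of these sums include genes near background. The part of these marker genes in the fall of Cdh5 was not tested.

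Cdh5 had a second, dimmer probe, whose position in the array files starts 660 bases from that of the first (chr8:102744103-102744162 against chr8:102744763-102744822; the genome build of these positions is not given in the sources used here). Its signal was 262, 410 and 363 units with BSA, 259, 243 and 206 units with Rspo2, 303, 194 and 189 units with Wnt3a, and 205, 213 and 325 units with both. The differences were negative as well (-0.29, -0.25 and -0.38), but the spread was larger and none passed (adjusted p = 0.246, 0.285 and 0.0928).

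The 12 arrays lay on 3 slides, and BSA shared a slide with Rspo2 but with neither Wnt3a nor the combination. Within the first slide the Rspo2 array lay 0.41 below the mean of the 3 BSA arrays. With slide as a fixed term the changes were -0.41, -0.53 and -0.66, and none passed (adjusted p = 0.154, 0.135 and 0.0957). In this fit Wnt3a and the combination are tied to BSA only through the 1 Rspo2 array on the first slide. Their values are therefore no comparison with BSA within a slide. With slide as a random block all 3 passed (-0.41, -0.49 and -0.56, adjusted p = 0.0185, 0.00361 and 0.000896).

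**Figure D3:**
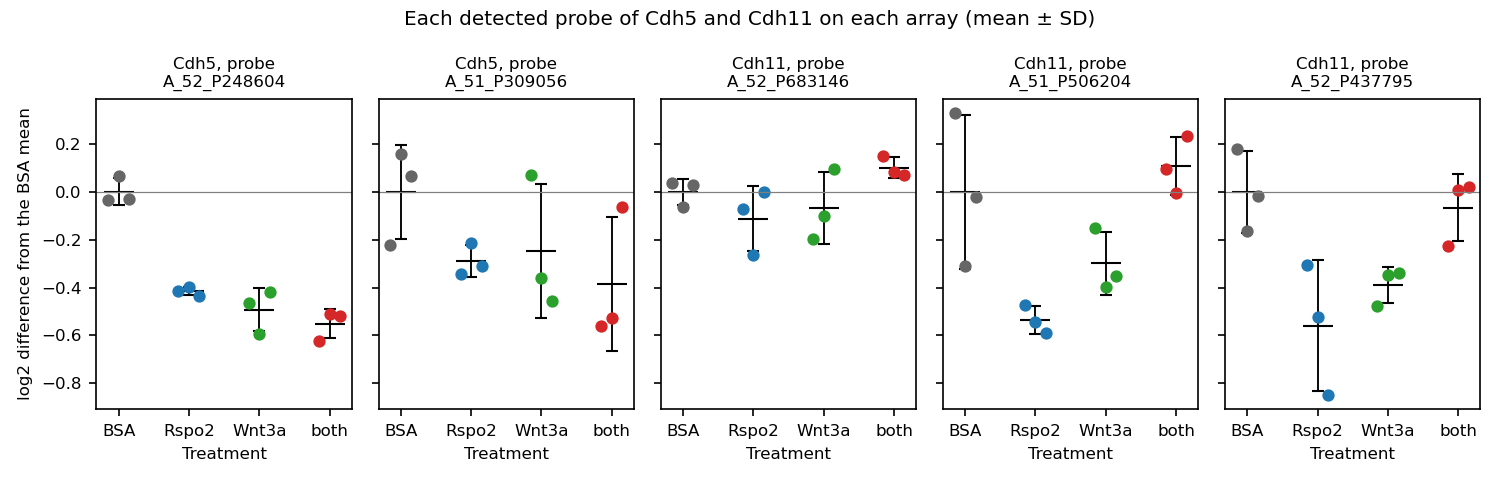
Each detected probe of Cdh5 (2 panels) and Cdh11 (3 panels) on the 12 arrays, as the log2 difference of the scaled signal from the mean of the BSA arrays; points are arrays, black bars are mean ± SD of 3 arrays, and both stands for Rspo2 plus Wnt3a. The brightest Cdh5 probe is lower on all treated arrays, whereas the dimmer pair of Cdh11 probes is lower with Rspo2 but near the BSA mean with both proteins, which its brightest probe does not show to the same degree.

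Cdh11 encodes OB-cadherin, a cadherin of mesenchymal cells and osteoblasts, and its 3 probes gave different values. On the brightest probe the signal was 1335, 1500 and 1506 units with BSA, 1329, 1001 and 1084 with Rspo2, 1072, 988 and 1178 with Wnt3a, and 1430, 1388 and 1518 with both. After scaling, the arrays with both proteins lay above the BSA arrays without overlap, and the other groups overlapped. The differences from BSA were -0.11, -0.07 and 0.10 (adjusted p = 0.428, 0.627 and 0.435).

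The other probes of Cdh11, described because of their values, lie together in the array files (chr8:101227807-101227866 and chr8:101227384-101227443), 34.01 and 34.43 kb from the brightest one (chr8:101261817-101261876). The first of them read 382, 296 and 341 units with BSA, 235, 193 and 168 with Rspo2, 259, 188 and 202 with Wnt3a, and 322, 306 and 398 with both. The second read 262, 249 and 260 units with BSA, 201, 149 and 107 with Rspo2, 157, 148 and 155 with Wnt3a, and 196, 234 and 261 with both. On each of them the Rspo2 arrays did not overlap the BSA arrays, before or after scaling.

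These 2 probes fell with Rspo2 by 0.54 and 0.56 on the log2 scale (SE 0.14 each, adjusted p = 0.0331 and 0.0271). With Wnt3a they differed from BSA by -0.30 and -0.39 (adjusted p = 0.135 and 0.0550), of which the second passed under 6 of 28 alternatives, and with both proteins by 0.11 and -0.07 (adjusted p = 0.584 and 0.742). Their interaction was 0.94 and 0.88 (SE 0.20 each, adjusted p = 0.0227 and 0.0261), against 0.28 (SE 0.13, adjusted p = 0.192) on the brightest probe. The fall with Rspo2 no longer passed for either probe without BSA array 1, BSA array 3, Rspo2 array 2 or Rspo2 array 3, and over all 12 arrays left out in turn it ranged from -0.69 to -0.37 on the first (highest adjusted p = 0.109) and from -0.69 to -0.41 on the second (highest adjusted p = 0.0933). Nor did it pass with slide as a fixed term (adjusted p = 0.325 and 0.398) or after the normexp background correction (-0.06 and -0.0022, where the median of all probes was 0.15). The interaction was likewise lost with slide as a fixed term (0.93 and 0.58, adjusted p = 0.222 and 0.302) and after normexp (0.31 and 0.16, adjusted p = 0.914 and 0.937). The difference between the probes was not tested.

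Cdh13 encodes T-cadherin, which is held to the membrane by a lipid anchor and lacks the catenin-binding tail. Its scaled log2 level lay between 1.12 and 1.21 for BSA, between 1.28 and 1.34 for Rspo2, between 1.14 and 1.32 for Wnt3a and between 1.16 and 1.34 for both. The Rspo2 arrays did not overlap the BSA arrays, but the difference was 0.13 (95% interval -0.04 to 0.30, adjusted p = 0.267). A dimmer probe of this gene, above background on 11 arrays, differed from BSA by 0.23, 0.18 and -0.04, and none passed.

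Cdh20, a type II cadherin of neural tissue, overlapped BSA in every treated group. Its scaled log2 value ranged from -1.59 to -1.28 over all 12 arrays, and its differences from BSA were -0.08, -0.01 and 0.07, with 95% intervals that stayed within -0.28 to 0.26.

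Cdh26 lay the other way from Cdh5. Its signal was 197, 227 and 219 units with BSA, 245, 194 and 209 with Rspo2, 235, 181 and 179 with Wnt3a, and 206, 229 and 267 with both. After scaling, the BSA arrays (-2.34 to -2.27) lay below all 9 treated arrays (-2.19 to -1.92), which the unscaled signals do not show.

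The differences of Cdh26 from BSA were 0.25, 0.23 and 0.22 (SE 0.09 each), and none passed (adjusted p = 0.0848, 0.0778 and 0.0818). After quantile normalization they were 0.34, 0.41 and 0.36 and all passed (adjusted p = 0.0406, 0.0105 and 0.0125). After normexp background correction they were 0.46, 0.01 and -0.0045, and none passed (adjusted p = 0.805, 0.983 and 0.994).

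**Figure D4:**
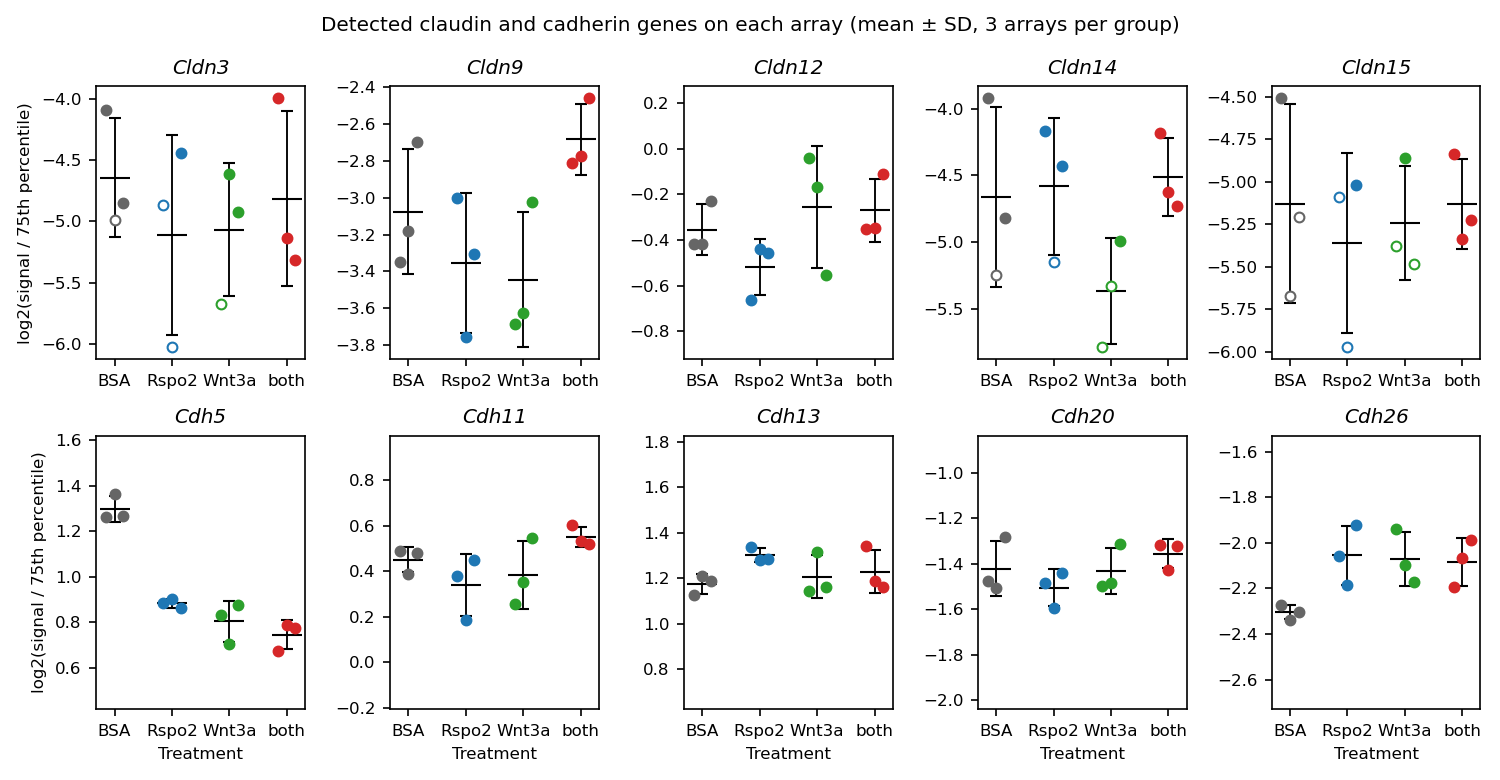
Scaled log2 signal of the 10 detected members on each array by treatment; filled points are above background, open points are not, black bars are mean ± SD of 3 arrays, and both stands for Rspo2 plus Wnt3a. Each panel has its own axis, since levels of different probes cannot be compared. Cdh5 and Cdh26 are the panels in which BSA stands apart from all treated groups. The share of all tested probes that do so was not counted.

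Among the claudins, Cldn12 and Cldn9 were above background throughout. Cldn12, which unlike most claudins lacks a binding motif for PDZ proteins at its end, ranged from 548 to 980 units. Its scaled level with Rspo2 lay below all BSA arrays, and the other groups overlapped BSA. Its differences from BSA were -0.17, 0.10 and 0.08 (adjusted p = 0.406, 0.605 and 0.658), and its 95% intervals stayed within 0.46 of 0 on the log2 scale in the 3 comparisons with BSA.

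Cldn9, known from the tight junctions of the inner ear, was read at 93.3, 126 and 167 units with BSA, 128, 65.1 and 80.3 with Rspo2, 70.0, 62.8 and 99.1 with Wnt3a, and 134, 140 and 192 with both. The arrays with both proteins did not overlap those with Wnt3a alone, but all groups overlapped BSA. The differences from BSA were -0.28, -0.37 and 0.39 (adjusted p = 0.435, 0.263 and 0.217).

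Cldn9 was 0.76 higher on the log2 scale with both proteins than with Wnt3a (SE 0.24, adjusted p = 0.115; 0.97 and adjusted p = 0.0332 without Wnt3a array 3), and its interaction was 1.04 (SE 0.34, adjusted p = 0.0753). The interaction passed when Rspo2 array 1 was left out (1.22, adjusted p = 0.0431) or Wnt3a array 3 (1.25, adjusted p = 0.0364). With slide as a fixed term it was 0.27 (adjusted p = 0.699).

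Cldn3 of epithelial barriers, Cldn14 of the inner ear and Cldn15, a cation pore of intestine, were close to background, and they entered the test through the combination alone. Cldn3 ranged from 13.5 to 59.1 units over the arrays, Cldn14 from 16.3 to 62.7 units, and Cldn15 reached at most 41.7 units, and the groups of each overlapped in every comparison with BSA. Their differences from BSA lay between -0.71 (Cldn14 with Wnt3a, adjusted p = 0.149) and 0.15 (Cldn14 with both). For Cldn3 and Cldn14 the 95% intervals in 1 or more of the comparisons with BSA reached beyond 2-fold, so these arrays could not show whether they changed by 2-fold.

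Over the 7 members above background on all 12 arrays the median change was -0.11 with Rspo2, -0.01 with Wnt3a and 0.08 with both. Over the 20436 probes above background on all arrays it was 0.03, 0.02 and 0.05. Including Cldn3, Cldn14 and Cldn15, whose entry through the combination favours higher values there, the medians were -0.14, -0.09 and 0.07. The 95% interval lay wholly within 2-fold for 9, 8 and 9 of the 10 tested members, against 91.5%, 86.8% and 83.6% of all probes.

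The partners of cadherins were mostly detected. Of 15 catenins and other armadillo or linker proteins 11 were detected, all on 12 arrays. None was called with Rspo2 or Wnt3a alone, and 2 were called lower with both, where 5.08% of all tested probes were called in either direction. These were Ctnnal1, which is related to α-catenin (-1.08, SE 0.12, adjusted p = 6.62e-05), and Pkp3, a plakophilin of desmosomes (-1.01, SE 0.20, adjusted p = 0.00293). The median change of the 11 with both proteins was -0.27, with 4 higher and 5 lower at an adjusted p under 0.05, where 39.2% of all tested probes passed. Ctnnb1, which encodes β-catenin and is named here for its role, differed from BSA by -0.30 with Rspo2 (adjusted p = 0.0768), and fell by 0.33 with Wnt3a (adjusted p = 0.0405) and by 0.39 with both (adjusted p = 0.0169), below 2-fold.

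Of 29 other tight junction proteins on the array 16 were detected, and 1 was called, with Wnt3a, where 2.52% of all tested probes were called. The called gene was Magi2, a scaffold of cell junctions, which fell with Wnt3a (-1.17, SE 0.21, adjusted p = 0.00277) and, by just under 2-fold, with both (-0.98, adjusted p = 0.00389). Ocln, which encodes occludin, was above background on 1 array. Of 6 nectins and afadin 5 were detected and none was called. In the comparisons with BSA 1, 2 and 1 of the 5 had an adjusted p under 0.05. The shares of all tested probes there were 16.8%, 31.5% and 39.2%. Of 13 desmosomal genes only Evpl and Perp were detected, none was called, and the plaque protein desmoplakin (Dsp) was above background on no array.

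Some other members of the cadherin superfamily passed both thresholds. Of 24 on the array 13 were detected, and 3 were called with both proteins, against 5.08% of all tested probes. The protocadherin-related Pcdh21 rose by 1.53 on the log2 scale (SE 0.15, adjusted p = 3.71e-05) and had an interaction of 1.05 (SE 0.21, adjusted p = 0.019). The atypical cadherins Fat4 and Celsr1, both known from planar cell polarity, fell, with log2 changes of -1.40 (SE 0.20, adjusted p = 0.000411) and -1.37 (SE 0.19, adjusted p = 0.000333). The median change of the 13 genes was -0.02, against 0.04 over all probes tested, and whether the superfamily differs from the numbered cadherins was not tested.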

How the data were processed

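Alexa-555-labelled cRNA from each monolayer was hybridized in 1 colour to probes 60 bases long. Deposited intensity values came from Agilent Feature Extraction 9.5.3.1 (named in the submitters' processing notes), run by the authors, which subtracted background and removed trends within each array but did not scale arrays to each other. The authors' value table holds ratio values, each signal over the 75th percentile of its array, rounded, with 0.01 as the lowest value; its arrays had median log2 values of -4.32 to -3.64 and correlated with the scanner values at 0.9997 to 0.9999, in the same direction.

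Spot values flagged as uneven or outlying were left out (1327 of 520548), spots of a probe were averaged, and each array's 75th percentile was subtracted on the log2 scale. Probes detected and with values on at least 2 arrays per group were fitted over all 12 arrays with limma 3.58.1 in R 4.3.3 (prior degrees of freedom 2.74), with data.table (version 1.17.8) and jsonlite 2.0.0, and the fit was tested on simulated data. Plots used matplotlib 3.10.9 in Python 3.11.15. A probe printed more than once was above background where at least 0.5 of its spots were. Names were checked through accessions for 45 of 61 probes of members, and all 45 had the same symbol.

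Members are named with their detection. Array values and tests are given for members called in any comparison or with an adjusted p under 0.05 against BSA, and ranges for the others detected. The fuller values of Cdh11, Cdh13, Cdh26, Cldn9, Cldn14 and Ctnnb1 were chosen after they were seen. The members and lists were chosen with earlier results of these data known. Alternatives comprised the background correction, scaling, filter, test, slide, replicate block, value source, probe choice and leaving out arrays. Arrays have no read depth, and the number of arrays and signal over background limit the precision. The p-values measure the spread between monolayers of 1 line.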

Additional observations from a re-analysis of the deposited data

Results flagged for a closer look

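The 2 dimmer probes of Cdh11 were singled out because the change with Rspo2 differed, by the interaction test, between cells without and with Wnt3a. The change in the presence of Wnt3a minus that in its absence was 0.94 on the log2 scale for one (SE 0.20, limma adjusted p = 0.0227) and 0.88 for the other (SE 0.20, adjusted p = 0.0261). Without Wnt3a, Rspo2 went with differences of -0.54 and -0.56. In its presence they were 0.41 and 0.32, which did not pass (adjusted p = 0.158 and 0.25). All 3 arrays with Rspo2 lay below all 3 BSA arrays on both probes. With single arrays left out the interaction ranged from 0.78 to 1.10 and passed in 7 of 12 fits for the first probe, and from 0.74 to 1.01 and in 6 of 12 for the second. Both lost it without BSA array 3, Rspo2 array 2, Wnt3a array 2 or the third array with both, the first also without Rspo2 array 3, and the second also without BSA array 1 or the second array with both (adjusted p up to 0.0607 and 0.0676). It was also lost after normexp background correction (0.31 and 0.16, adjusted p = 0.914 and 0.937), with slide as a fixed term (0.93 and 0.58, adjusted p = 0.222 and 0.302) and with no filter on dim probes (adjusted p = 0.0925 and 0.101), and for the second probe with slide as a random block (adjusted p = 0.0634). On the brightest probe of Cdh11 it was 0.28 (adjusted p = 0.192), and with the detected probes averaged it was 0.70 (adjusted p = 0.0126). That average includes the 2 dimmer probes singled out here, so it is no separate check of them.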

How the results depend on the processing

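The count of called members was 0 in 137 of 147 values over all comparisons and alternatives. The exceptions came from leaving out single arrays (2, for the interaction), the looser detection flag (1 member with Rspo2, 2 with Wnt3a, 1 with both, 1 for the interaction), from no filter (2 with Wnt3a) and from dropping the fold requirement (1 in each comparison with BSA, Cdh5). The members called at the looser flag or without a filter were Cldn11 and Cdh3, above background on 0 and 2 arrays, so no fold is given. With single arrays left out the count stayed at 0 against BSA and against Wnt3a, and ranged from 0 to 1 for the interaction (Cldn9, without Rspo2 array 1 or Wnt3a array 3). The looser flag raised the detected members from 10 to 25. Leaving out single arrays, chosen as an alternative after seeing the data, gave 10 or 11, with Cdh22 added when the third array with both proteins was left out. Fewer arrays then had to be flagged, so a member could be added but none could be lost.

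The fall of Cdh5 passed in all 12 fits with 1 array left out in each comparison with BSA. It kept its direction but not its side of the threshold with normexp background correction (-0.57, -0.59 and -0.50, adjusted p = 0.327, 0.0846 and 0.0613), with slide as a fixed term, and for Rspo2 with no filter (adjusted p = 0.0665) or the methods' t-test with Benjamini-Hochberg adjustment (adjusted p = 0.162); the cause was not tested. The normexp correction moved the median of all probes to 0.15 with Rspo2 and to -0.16 for the interaction.

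The replicate block gave 0 called members in all 5 comparisons and kept Cdh5 past the threshold (adjusted p = 0.041, 0.00654 and 0.00186). Arrays with the same number did not deviate together: 4 of 18 pairs had a correlation over 0.1, and 3 of 12 arrays correlated best with their own number. With the block the second dimmer Cdh11 probe lost its interaction (adjusted p = 0.0612), and both lost their fall with Rspo2 (adjusted p = 0.0503 and 0.0622). The authors' value table gave 0 called members. Cldn3, Cldn14 and Cldn15 lay near background and had the widest intervals of the detected members, and the cause of their spread was not tested.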

Other observations

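A few undetected members had a signal on 1 array that stood out from the other arrays of its group. Cldn13 read 78.4 units on the second Rspo2 array against a median of 8.60 over all 12, and Cldn4 read 98.0 units on the same array against a median of 7.99. Cdh9 read 87.1 units on the first Rspo2 array against a median of 6.06, and Cdh7 read 66.0 units on the second array with both proteins against a median of 7.89. The other arrays of the same groups read at most 15.1 units for Cdh7, 11.5 for Cldn4, 8.86 for Cldn13 and 6.21 for Cdh9. In other groups Cldn4 read 44.2 units on the first BSA array, 34.3 on the first array with both proteins and 20.8 on the second Wnt3a array. These genes were chosen after their values were seen.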
